A study of Rattus norvegicus with 44 samples.

Results

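The vehicle livers of a 336 h study of rats, labelled study 3, were compared with the vehicle livers of another 336 h study, labelled study 2. The members were chosen by their labels as all arrays with vehicle, dose 0 and the 336 h time point, which gave 5 arrays of study 3 and 4 arrays of study 2, 9 of the 44 arrays in the series. All were livers of male Wistar rats aged 8 weeks that were given citric acid buffer alone by oral gavage once a day and were killed with carbon dioxide 24 h after the last dose. The series as a whole dosed such rats with compound R1 or R2, which are known here by their code names only. Further arrays are used beside these: 4 livers given R1 at 30 mg/kg in study 3, 5 given R1 at 20 mg/kg and 4 given R1 at 100 mg/kg in study 2, all at 336 h, and the 24 h vehicle livers of study 4 (4 arrays) and of study 1 (3 arrays). The labels give the same age, sex, strain, vehicle and time to both sets of 336 h vehicle livers, and do not state feeding, the hour of killing or an array batch. A difference between them is therefore a difference between studies, and animals, handling and array runs cannot be told apart. Replicate numbers are given without a statement that each array is a separate animal. The p-values therefore measure the spread among samples alone, technical spread included. That spread was pooled within the 11 groups of all 44 arrays, dosed livers and 24 h livers included.

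The liver switches between making and burning fat. In the fed state insulin and the sterol regulatory element binding proteins (SREBPs) raise the genes that turn acetyl-CoA into fatty acids and cholesterol, and Insig proteins hold SREBPs in the endoplasmic reticulum when sterols are plentiful. When fatty acids reach the liver, in fasting for example, the nuclear receptor PPAR-alpha raises the genes that carry fatty acids into mitochondria and peroxisomes and oxidise them, and in rodents also the omega-hydroxylases of the Cyp4a family. The same tissue disposes of amino acids, supplies methyl groups, makes most plasma proteins and metabolises drugs, in part under growth hormone, whose male pattern of release gives male rats their own set of cytochrome P450 enzymes.

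Signals are the deposited array values, in arbitrary units, and a fold change is the difference of group means on the scale log2(signal + 2.89), given as study 3 minus study 2 with its standard error. That offset makes the fold change of a gene near 3 units smaller than the ratio of its signals. Albumin (Alb), the main hepatocyte secretory product, read 12100, 12600, 12600, 12600 and 11700 in the study 3 vehicle livers and 12600, 12600, 12100 and 12100 in the study 2 vehicle livers. Its groups overlapped. All 44 arrays hold the same sorted values, so a probe set this bright can take few values. The likeness of Alb between the studies was thus limited in advance. Of 14 hepatocyte markers 1 rose and 3 fell (adjusted p under 0.05 with limma), against 8.64% and 8.07% of all genes. Their median log2 difference was 0.0, and groups did not overlap for 6 of them, against 20.8% of all probe sets. Their summed signal was 73040 to 73990 in study 3 and 74820 to 77360 in study 2, lower in study 3 without overlap. With sums this high both sets of arrays read as liver. Gamma-glutamyltransferase 1 (Ggt1) is low in normal adult rat hepatocytes. It read 1.86, 1.24, 4.06, 1.25 and 1.55 in study 3 and 2.37, 1.75, 2.4 and 1.03 in study 2, and averaged 89.5 in the dosed livers of study 3 and 71.8 and 96.5 at 20 and 100 mg/kg in study 2, so no vehicle array read like a dosed one for it. Over the tested probe sets Pearson's r between arrays was 0.946 to 0.973 within study 3, 0.963 to 0.974 within study 2 and 0.918 to 0.946 between them, and replicate 3 of study 3 had the lowest mean r with its own group (0.951).

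Both sets of vehicle livers differed widely. Of 6361 probe sets tested, 1135 (17.8%) passed an adjusted p of 0.05 with limma, 544 (8.55%) higher and 591 (9.29%) lower in study 3, and the arrays of the groups did not overlap for 1324 probe sets (20.8%), with study 3 higher for 630 (9.9%) and lower for 694 (10.9%). Differences of at least 4-fold were called for 78 probe sets, 27 higher and 51 lower, and 19 of these have no single gene symbol in the platform's annotation, including the lowest, at -5.41 on the log2 scale. Counted by gene, with a gene's brightest probe set standing for it, 617 of 3693 genes (16.7%) were called, of which 319 (8.64%) rose and 298 (8.07%) fell, and the median log2 difference over all of them was 0.04. The counts for the gene groups below are to be set against these shares. The groups of genes and the list memberships were chosen with earlier results of these data known, so a group's count describes the group and is not a test of it.

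**Figure D1:**
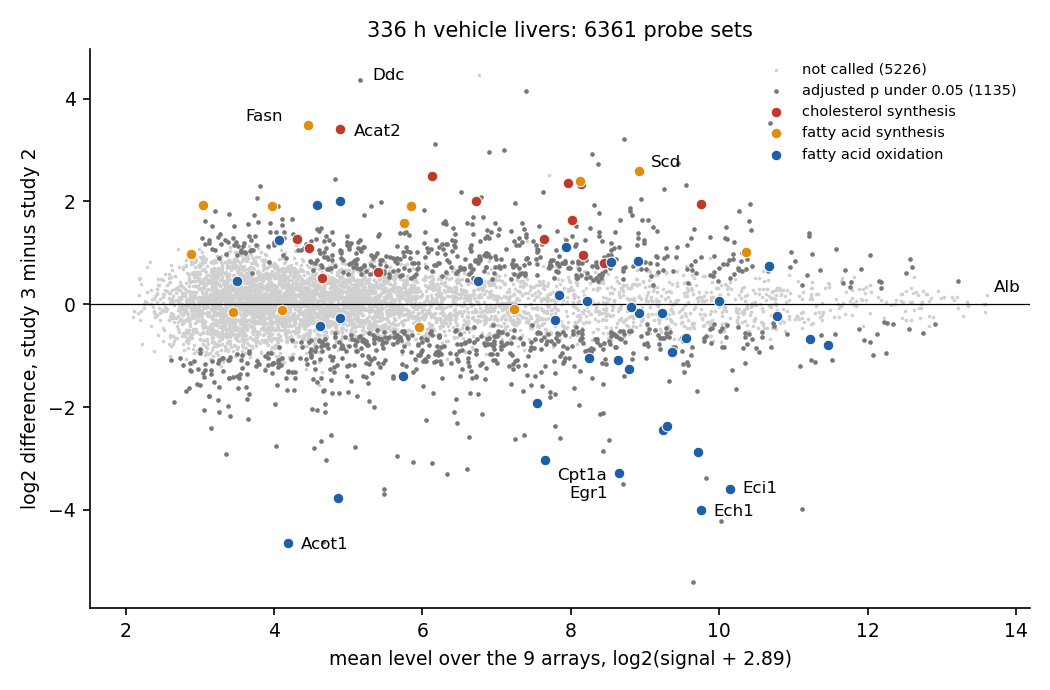
Each point is a tested probe set, with its mean log2(signal + 2.89) over both sets of vehicle livers on the horizontal axis and its log2 difference, study 3 minus study 2, on the vertical axis; called probe sets are dark, genes of 3 pathways are coloured and some genes are named. Called differences lie at all levels and on both sides of 0, with Ddc at 4.36 among the highest and Acot1 at -4.64 and Ech1 at -4.00 among the lowest.

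The genes of cholesterol synthesis were higher in study 3 almost throughout the pathway. Of 14 tested genes 13 rose and none fell, against 8.64% and 8.07% of all genes, with a median log2 difference of 1.45. Acat2, the cytosolic thiolase at the start of the pathway, read 89.7, 91.4, 72.5, 73.8 and 81 in the study 3 vehicle livers and 1.16, 5.9, 9.49 and 6.34 in the study 2 vehicle livers. Every study 3 array was far above every study 2 array, with a log2 difference of 3.40 ± 0.33 (adjusted p = 9.22e-11). The kinase Mvk and the decarboxylase Mvd, which act on mevalonate and its diphosphate, were closer: Mvk differed by 0.63 ± 0.21 (adjusted p = 0.0303) and Mvd by 1.26 ± 0.33 (adjusted p = 0.00521), and in neither did the groups overlap. Of the enzymes that build farnesyl diphosphate from the isoprene unit, the isomerase Idi1 read 196, 136, 236, 185 and 232 in study 3 and 29.8, 60.6, 54.3 and 44.4 in study 2. The synthase Fdps read 1880, 1540, 1450, 1700 and 1370 in study 3 and 328, 355, 563 and 418 in study 2. Both were higher in all 5 study 3 arrays than in any of the 4 study 2 arrays, by 2.01 ± 0.30 (adjusted p = 3.49e-06) and 1.95 ± 0.21 (adjusted p = 1.64e-09) on the log2 scale.

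The sterol branch followed the same direction. Squalene epoxidase (Sqle), which adds the oxygen that precedes ring closure, read 175, 83.1, 200, 131 and 184 in study 3 and 18.3, 24.1, 33.8 and 21.6 in study 2, and all study 3 arrays lay above all study 2 arrays (2.49 ± 0.30, adjusted p = 2.89e-08). The lanosterol demethylase Cyp51 read 553, 607, 582, 646 and 515 in study 3 and 90.2, 96.8, 123 and 143 in study 2. The ratio of its means was 5.12 and its log2 difference 2.35 ± 0.20 (adjusted p = 4.46e-12), and all 5 of its tested probe sets were called higher. Methylsterol monooxygenase (Msmo1), which works on the next methyl groups, read 426, 435, 646, 545 and 558 in study 3 and 81.7, 81.1, 124 and 113 in study 2, without overlap (2.36 ± 0.20, adjusted p = 6.97e-12). Squalene synthase (Fdft1) rose by 1.64 ± 0.19, lanosterol synthase (Lss) by 1.09 ± 0.20, the dehydrogenase Nsdhl by 0.97 ± 0.20, the isomerase Ebp by 0.80 ± 0.21 and Dhcr7, the reductase of the last step, by 1.27 ± 0.31, with adjusted p between 1.64e-08 and 0.00529. The reductase Hsd17b7 was the member not called: it read 26.2, 25.8, 39.6, 25.8 and 18 in study 3 and 13.8, 19.2, 18.7 and 19.6 in study 2, the groups overlapped and its adjusted p was 0.175.

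Genes of sterol regulation, sterol transport and bile acid synthesis gave a mixed picture. Insig1, itself an SREBP target as well as a brake on SREBP processing, read 720, 968, 797, 1360 and 904 in study 3 and 215, 270, 179 and 229 in study 2. The groups did not overlap and the ratio of means was 4.25 (2.05 ± 0.27, adjusted p = 1.41e-07). Of the 4 tested genes of sterol regulation and transport that are not enzymes of synthesis, Insig1 rose and Lcat, which esterifies cholesterol on plasma lipoproteins, fell (log2 difference -0.57 ± 0.13, adjusted p = 0.00116). The other members, Nr1h3 and Scarb1, were not called. Cyp7a1, the rate-limiting enzyme of bile acid synthesis, was not called, with 34, 98.2, 27.4, 51.7 and 101 in study 3 and 110, 96.4, 72.1 and 256 in study 2. Its groups overlapped (adjusted p = 0.262).

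Promoters are shown for cholesterol genes that moved together, because sterol-regulated promoters are known to pair SREBP sites with the CCAAT box, the sequence bound by the factor NF-Y. The sequences are the 250 bases before the annotated gene start in the RefSeq annotation of rat build GRCr8, read 5′ to 3′ on the gene's strand, with CCAAT or its reverse complement ATTGG in capitals. The Msmo1 promoter lies at chr16:29746863-29747112 on the plus strand, that of Idi1 at chr17:66547525-66547774, that of Fdps at chr2:176804817-176805066 and that of Insig1 at chr4:8057770-8058019, the last 3 on the minus strand.
Msmo1: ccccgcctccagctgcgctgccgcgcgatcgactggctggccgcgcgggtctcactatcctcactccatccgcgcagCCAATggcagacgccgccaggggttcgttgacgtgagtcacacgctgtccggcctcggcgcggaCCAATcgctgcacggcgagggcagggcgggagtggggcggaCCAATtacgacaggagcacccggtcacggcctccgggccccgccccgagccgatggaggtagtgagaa
Idi1: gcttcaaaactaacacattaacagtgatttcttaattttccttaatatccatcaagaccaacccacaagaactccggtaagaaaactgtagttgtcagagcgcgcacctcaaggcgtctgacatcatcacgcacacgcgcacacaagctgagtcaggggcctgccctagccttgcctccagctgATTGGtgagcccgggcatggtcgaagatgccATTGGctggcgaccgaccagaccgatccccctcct
Fdps: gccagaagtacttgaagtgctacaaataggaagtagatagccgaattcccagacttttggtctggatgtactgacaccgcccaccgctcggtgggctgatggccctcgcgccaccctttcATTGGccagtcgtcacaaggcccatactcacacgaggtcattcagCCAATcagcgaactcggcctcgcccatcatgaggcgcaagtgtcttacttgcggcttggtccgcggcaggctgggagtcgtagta
Insig1: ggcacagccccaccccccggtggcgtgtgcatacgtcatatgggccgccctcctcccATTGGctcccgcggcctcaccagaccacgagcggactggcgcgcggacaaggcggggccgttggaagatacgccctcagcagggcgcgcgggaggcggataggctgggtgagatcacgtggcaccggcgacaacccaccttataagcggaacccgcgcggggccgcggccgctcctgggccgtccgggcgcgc
Msmo1 held 3 boxes, which start 173, 109 and 68 bases before the gene start. Idi1 held 2, at 66 and 35 bases before the start, Fdps 2, at 130 and 85 bases, and Insig1 1, at 193 bases. All promoters shown thus hold the box. Those of Cyp51, Acat2 and Dhcr7, also called higher, were searched, held none and are not shown. Counting either strand, CCAAT stood in 8 of the 11 promoters found for the 13 called cholesterol genes (72.7%) and in 5 of 7 found for the 8 called fatty acid synthesis genes (71.4%). The share was 41.7% (5 of 12) for the called lower genes of oxidation and 34.0% (11385 of 33469) for all promoters of the same length. The sterol element sequence TCACNCCAC stood in 0 of the 11, 0 of the 7 and 1 of the 12 (Ehhadh), with 0.974% of all promoters holding it, and a PPAR-type direct repeat of AGGNCA spaced by 1 base stood in none of the 3 sets, with 0.368% of all. A match is a stretch of letters in this window and not a shown binding site.

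The genes of fatty acid synthesis were also higher in study 3, at the core enzymes but not at all members. Of 13 tested genes 8 rose and none fell, with a median log2 difference of 1.59. Fatty acid synthase (Fasn) read 71.6, 53.5, 67.4, 67.4 and 49.3 in study 3 and 2.81, 3.3, 2.77 and 2.59 in study 2. The study 2 arrays lay at about the size of the offset, the groups were far apart and the log2 difference was 3.48 ± 0.30 (adjusted p = 9.85e-12). ATP citrate lyase (Acly), which releases the acetyl-CoA used for both fatty acids and sterols, read 558, 706, 552, 672 and 460 in study 3 and 98, 133, 103 and 104 in study 2, with a ratio of means of 5.39 (2.39 ± 0.29, adjusted p = 3.18e-08). Stearoyl-CoA desaturase (Scd), which makes monounsaturated fatty acids, read 1180, 2090, 1400, 571 and 716 in study 3 and 127, 87.3, 483 and 172 in study 2. Its arrays spread widely within each study but did not overlap between them (2.60 ± 0.46, adjusted p = 4.29e-05).

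The regulator and some further members rose as well. Srebf1, which encodes SREBP-1, read 118, 113, 75.9, 54.9 and 80.3 in study 3 and 26.1, 17.5, 29.3 and 36 in study 2 and was higher in every study 3 array (1.59 ± 0.33, adjusted p = 0.000351). The elongase Elovl5 rose by 1.02 ± 0.20, the glycerol phosphate acyltransferase Gpam by 1.91 ± 0.33 and the lipase-like Pnpla3, which responds to sugar and insulin, by 1.93 ± 0.57 (adjusted p = 0.0137). Liver pyruvate kinase (Pklr), counted here as a lipogenic gene because carbohydrate raises it with them, rose by 1.92 ± 0.37 (adjusted p = 0.000146). Neither acetyl-CoA carboxylase was called: Acaca read 14.6, 8.19, 9.27, 5.17 and 3.71 in study 3 and 9.65, 10.1, 8.11 and 7.25 in study 2. Acacb read 12.3, 4.12, 2.68, 10.9 and 9.28 in study 3 and 2.71, 2.18, 1.43 and 2.52 in study 2. Both carboxylases were dim and their groups overlapped. Malic enzyme (Me1), Scd2 and the triglyceride-forming Dgat1 differed by -0.44, -0.11 and -0.09 on the log2 scale with adjusted p of 0.428, 0.882 and 0.774.

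**Figure D2:**
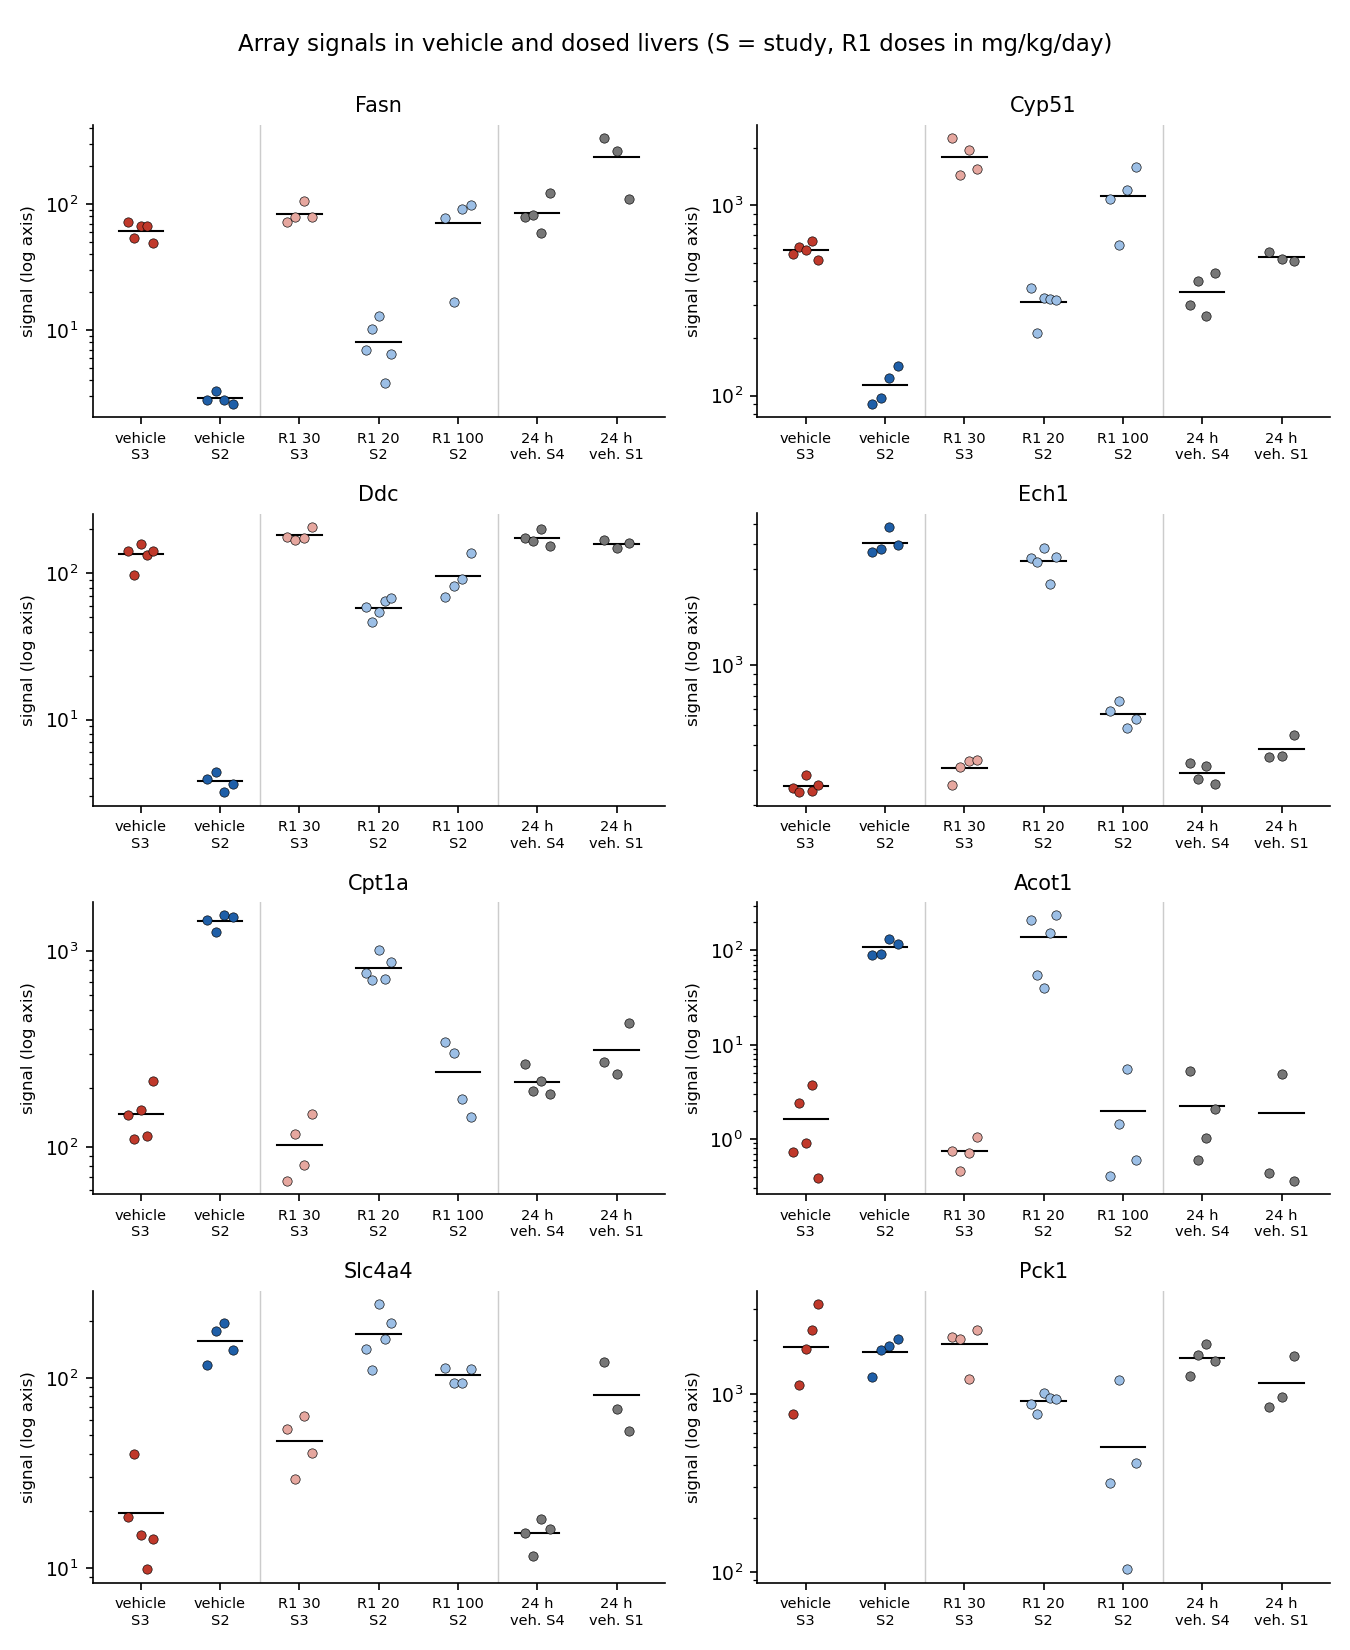
Signals of single arrays on a log axis for 8 genes, with each set of arrays as a column and the mean as a line, study 3 left of study 2. Fasn, Cyp51 and Ddc lie higher and Ech1, Cpt1a and Acot1 lower in every study 3 vehicle array than in any study 2 vehicle array.

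Genes that oxidise fatty acids included the largest falls in study 3 among called genes with a single symbol and no overlap of groups. Entry into the mitochondrion came first. Cpt1a, the carnitine acyltransferase that controls it, read 145, 110, 154, 113 and 218 in study 3 and 1440, 1250, 1530 and 1500 in study 2. The study 2 mean was 9.65 times the study 3 mean, with a log2 difference of -3.29 ± 0.27 (adjusted p = 2.15e-12). The carrier Slc25a20, which moves acylcarnitines across the inner membrane, read 101, 97.9, 104, 93 and 103 in study 3 and 361, 372, 444 and 380 in study 2, with tight and separate groups (-1.93 ± 0.18, adjusted p = 2.37e-11). Cpt2, on the matrix side, and Slc22a5, the carnitine transporter of the cell surface, also fell, with log2 differences of -1.04 ± 0.20 (adjusted p = 0.000134) and -1.48 ± 0.42 (adjusted p = 0.00891).

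Inside the mitochondrion the change was uneven. Of 18 tested genes of mitochondrial oxidation 7 fell and 2 rose, against 8.07% and 8.64% of all genes, 9 were not called and the median log2 difference was -0.27. The isomerase Eci1, which prepares unsaturated fatty acids, read 380, 315, 526, 410 and 271 in study 3 and 4800, 4770, 4040 and 4450 in study 2. The ratio of means was 11.9 in favour of study 2 (-3.59 ± 0.18, adjusted p = 2.83e-19). The reductase Decr1, also needed for unsaturated chains, read 307, 219, 471, 175 and 327 in study 3 and 1550, 1750, 1340 and 1620 in study 2, without overlap (-2.45 ± 0.25, adjusted p = 5.2e-10). The thiolase subunit Hadhb and the long-chain dehydrogenase Acadl fell as well, with log2 differences of -1.25 ± 0.21 and -0.92 ± 0.20. Hadha, the partner of Hadhb, was not called on its brightest probe set (-0.17, adjusted p = 0.487), although 1 of its 3 probe sets was called lower, and the medium-chain dehydrogenase Acadm was not called either (0.06, adjusted p = 0.899). Of the 2 members that rose, the short-chain hydratase Echs1 differed by 0.84 ± 0.25 (adjusted p = 0.0119) and Acadsb, a dehydrogenase of short branched chains, by 2.00 ± 0.50 (adjusted p = 0.00333). The short-chain dehydrogenases Acads (0.45, adjusted p = 0.152) and Hadh (0.46, adjusted p = 0.443) were not called.

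Peroxisomal oxidation held the gene with the smallest adjusted p of the members described. Ech1, an isomerase found in peroxisomes and mitochondria, read 245, 232, 283, 235 and 253 in study 3 and 3630, 3750, 4860 and 3930 in study 2. Both groups were tight and the study 2 mean was 16.2 times that of study 3 (-4.00 ± 0.15, adjusted p = 4.04e-24). Of 11 tested peroxisomal genes 6 fell and 3 rose, with a median of -0.79. The bifunctional enzyme Ehhadh, a classic PPAR-alpha target, read 318, 293, 291, 290 and 320 in study 3 and 1280, 1780, 1620 and 1620 in study 2 (-2.36 ± 0.23, adjusted p = 8.68e-11). The thiolase Acaa1b read 58.9, 60.6, 82.3, 89.3 and 99.7 in study 3 and 693, 450, 861 and 628 in study 2 (-3.02 ± 0.29, adjusted p = 9.22e-11). In both genes all study 3 arrays lay below all study 2 arrays.

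Other peroxisomal members differed less. Pex11a, which multiplies peroxisomes, the reductase Decr2 and the acyl-CoA transporter Abcd3 fell, with log2 differences of -1.39 ± 0.24, -1.09 ± 0.23 and -0.79 ± 0.19 and adjusted p of 3.02e-05, 0.000662 and 0.00254. The members that rose were Acox2, an oxidase of bile acid intermediates, by 1.12 ± 0.21 (adjusted p = 0.000146), the sterol carrier and thiolase Scp2 by 0.83 ± 0.24 (adjusted p = 0.0107) and Acox3, which acts on branched chains, by 1.25 ± 0.44 (adjusted p = 0.0427). Acox3 read 6.24 in replicate 3 of study 3 against 25.3 to 34.9 in the other study 3 arrays, so its groups overlapped, and its call ended in 11 of the alternative settings.

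The thioesterases Acot1 and Acot2 and the omega-hydroxylase Cyp4a1 were lower in study 3. The acyl-CoA thioesterase Acot1 read 0.722, 2.43, 0.915, 3.77 and 0.39 in study 3 and 89.1, 91.7, 133 and 117 in study 2. All study 3 values were near or under the offset, so the log2 difference of -4.64 ± 0.42 (adjusted p = 1.73e-11) understates the ratio of signals. Acot2, its mitochondrial relative, read 6.68, 1.52, 10, 2 and 21.1 in study 3 and 55.3, 209, 114 and 165 in study 2 and was lower in every study 3 array (-3.77 ± 0.54, adjusted p = 1.32e-06). Cyp4a1, which hydroxylates fatty acids at the end of the chain, read 478, 345, 576, 195 and 264 in study 3 and 2440, 2650, 2520 and 2520 in study 2, and all 3 of its probe sets were called lower (-2.87 ± 0.39, adjusted p = 3.56e-07). Its relative Cyp4a8 rose, with 33.9, 32.6, 37.2, 46.5 and 55.4 in study 3 and 8.41, 10.3, 7.39 and 7.98 in study 2 (1.93 ± 0.37, adjusted p = 0.000148), and Cyp4a3 was not called (-0.43, adjusted p = 0.402). Of the 8 tested genes of this list 3 fell and 2 rose (median -0.35). Acot1 and Acot2, and the Cyp4a genes, are near-identical within each family, and an array probe can read more than its own gene.

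Of 13 tested PPAR-alpha targets outside these pathways 3 fell and 1 rose, and 1 fell without study 2 replicate 1, study 3 replicate 2 or study 3 replicate 5. Besides Slc22a5 the called genes were the uncoupling protein Ucp2 (-0.71 ± 0.22, adjusted p = 0.0207), the monoglyceride lipase Mgll (-0.77 ± 0.27, adjusted p = 0.0417) and, upward, the glycerol phosphate dehydrogenase Gpd1 (1.46 ± 0.23, adjusted p = 9.49e-06). The fatty acid carrier Fabp1 read 5380, 6920, 5060, 6550 and 4510 in study 3 and 5820, 6060, 7190 and 5520 in study 2. Its groups overlapped. Pdk4, a kinase that rises in fasting, read 32.7, 31.3, 15.6, 24.8 and 23.5 in study 3 and 11.2, 20.2, 10.1 and 23.1 in study 2. The lipid droplet protein Plin2 read 636, 740, 820, 682 and 1020 in study 3 and 1120, 881, 917 and 1220 in study 2. Neither was called (adjusted p of 0.268 and 0.22) and both overlapped. With limma 0 of the 3 tested ketone body genes were called, and 0 had an unadjusted p under 0.05, against 1891 of all 6361 probe sets. Among them Bdh1 differed by 0.04 and Acat1 by 0.32 on the log2 scale.

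**Figure D3:**
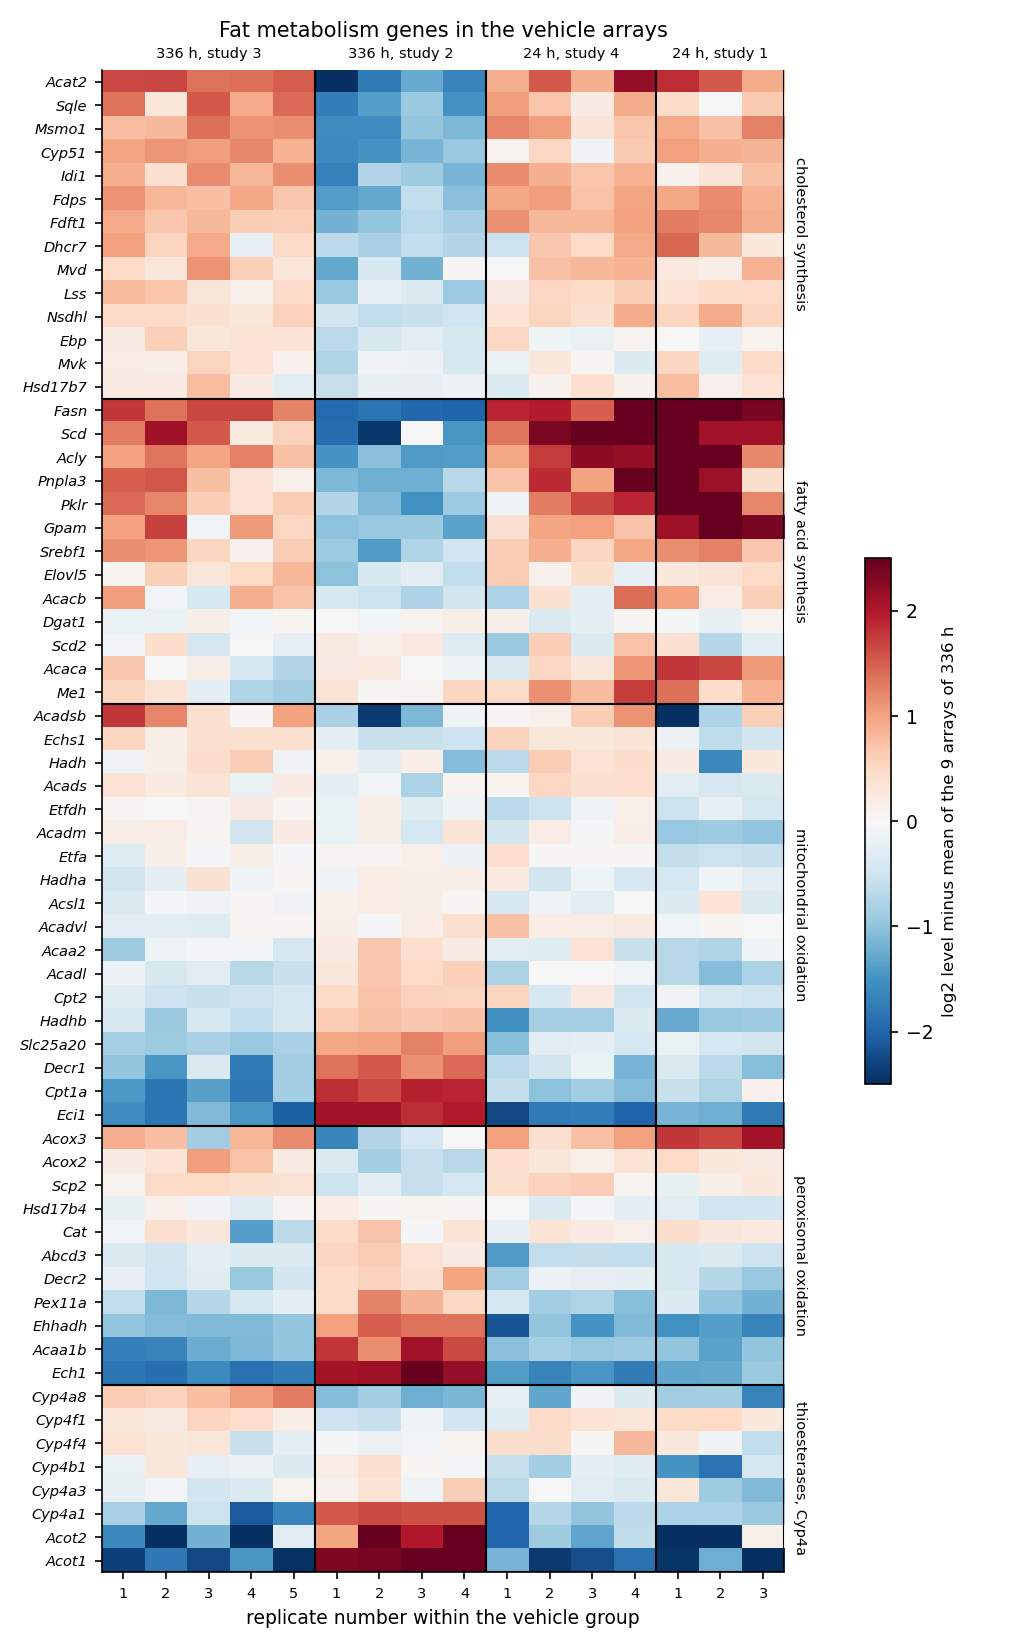
Each row is a gene and each column a vehicle array, at 336 h the 5 of study 3 left of the 4 of study 2, then at 24 h those of studies 4 and 1. Colour is the gene's log2(signal + 2.89) minus its mean over the 9 arrays of 336 h, limited to 2.5 either way. Most rows of cholesterol and fatty acid synthesis are high in the study 3 columns, and those of Cpt1a, Eci1, Ech1, Acot1 and Cyp4a1 are high in the study 2 columns.

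Of 13 tested regulators that respond to fasting and insulin 4 rose and 1 fell (median 0.20). Besides Srebf1 the rises were the kinase Sgk1 (1.37 ± 0.32, adjusted p = 0.00175), the transcription factor Cebpb (0.81 ± 0.19, adjusted p = 0.00232) and the inhibin subunit Inhbe (0.87 ± 0.23, adjusted p = 0.00593). Pck1, the rate-limiting enzyme of glucose production, read 776, 1120, 1790, 2290 and 3210 in study 3 and 1240, 1780, 1850 and 2040 in study 2. The study 3 arrays spanned the whole range of study 2 and beyond (-0.06, adjusted p = 0.943). Tyrosine aminotransferase (Tat), raised by glucocorticoids, was not called (0.31, adjusted p = 0.506). Igfbp1, which insulin represses, read 36.4, 113, 49, 171 and 341 in study 3 and 316, 547, 610 and 856 in study 2, and it was the 1 that fell (-2.36 ± 0.51, adjusted p = 0.000748) although the highest study 3 array lay above the lowest study 2 array. From the list of growth hormone and IGF genes, of which 2 of 13 rose (0 without study 2 replicate 2, 1 without study 2 replicate 1 or 3) and 2 fell, its relative Igfbp2 read 18.7, 14.6, 4.05, 4.84 and 4.92 in study 3 and 103, 56.6, 47 and 71.6 in study 2, without overlap (-2.67 ± 0.46, adjusted p = 3.41e-05). Igf1 itself was not called (-0.34, adjusted p = 0.226), with 1 of its 5 probe sets called, and the growth hormone signal carrier Stat5b rose by 0.67 ± 0.19 (adjusted p = 0.0114).

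Sugar handling leaned towards study 3. Of 13 tested genes of glycolysis and fructose use 5 rose and none fell (median 0.31), and 3 rose without study 2 replicate 2. Besides Pklr these included the glucokinase regulator Gckr, with 337, 353, 350, 370 and 376 in study 3 and 154, 140, 171 and 135 in study 2 (1.24 ± 0.17, adjusted p = 2.98e-07). Ketohexokinase (Khk), which starts fructose breakdown, rose by 0.62 ± 0.18 (adjusted p = 0.0104) and the pyruvate dehydrogenase subunit Pdha1 by 0.84 ± 0.20 (adjusted p = 0.00208). Glycogen enzymes moved apart: the phosphorylase Pygl read 159, 198, 178, 150 and 186 in study 3 and 94, 57.7, 67.4 and 56.7 in study 2 (1.32 ± 0.18, adjusted p = 4.4e-07). The synthase Gys2 read 68.6, 81.9, 61.2, 57.3 and 91.3 in study 3 and 174, 207, 208 and 207 in study 2 (-1.45 ± 0.22, adjusted p = 3.56e-06). Pygl was thus higher and Gys2 lower in every study 3 array.

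Some enzymes that supply methyl groups or use amino acids were higher in study 3. Of 16 tested genes of methionine, folate and glycine metabolism 8 rose and none fell (median 0.52). The folate dehydrogenase Aldh1l1 read 631, 759, 940, 714 and 892 in study 3 and 183, 221, 257 and 218 in study 2 (1.82 ± 0.18, adjusted p = 1.42e-10). Betaine homocysteine methyltransferase (Bhmt) read 3630, 3600, 3960, 3160 and 3860 in study 3 and 1230, 1360, 1530 and 1470 in study 2 (1.38 ± 0.27, adjusted p = 0.000195). Both were separated without overlap. The cysteine-forming Cth rose by 1.44 ± 0.23, the dimethylglycine dehydrogenase Dmgdh by 1.46 ± 0.37 and the methionine adenosyltransferase Mat1a by 0.56 ± 0.20, the last with overlapping groups and an adjusted p of 0.0484, a call that ended in 11 alternative settings.

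The amino acid list of 30 tested genes had 12 higher and 3 lower (median 0.34), with 1 lower without study 2 replicate 2. In the urea cycle Otc rose, with 783, 1450, 1070, 1220 and 1000 in study 3 and 496, 490, 511 and 440 in study 2 (1.16 ± 0.30, adjusted p = 0.00397). Asl, a later enzyme of the same cycle, fell, with 511, 429, 407, 599 and 548 in study 3 and 1400, 1400, 1650 and 1960 in study 2 (-1.68 ± 0.18, adjusted p = 1.17e-09). Neither gene's groups overlapped. Ornithine aminotransferase (Oat) rose by 1.88 ± 0.31 (adjusted p = 1.64e-05) and the tryptophan-degrading Tdo2 and Kmo by 0.70 ± 0.20 and 1.09 ± 0.20 (adjusted p of 0.0106 and 7.51e-05). Serine dehydratase (Sds), which rises with fasting and protein intake, read 110, 91.1, 229, 220 and 144 in study 3 and 556, 958, 249 and 876 in study 2 and fell (-1.96 ± 0.66, adjusted p = 0.032), a call that ended in 6 alternative settings.

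The gene with the largest rise was Ddc, the decarboxylase that makes dopamine and serotonin. It read 143, 97.6, 159, 133 and 143 in study 3 and 3.94, 4.39, 3.18 and 3.62 in study 2. No array came near the other group (4.36 ± 0.21, adjusted p = 4.64e-20). The membrane scaffold protein Flot1 read 148, 161, 273, 201 and 162 in study 3 and 16.4, 11.9, 52.5 and 11 in study 2 (3.11 ± 0.45, adjusted p = 1.24e-06), though 1 of its 2 tested probe sets was not called. The carbonic anhydrase Car3, abundant in male rat liver, read 962, 830, 1070, 1620 and 1940 in study 3 and 260, 123, 390 and 333 in study 2 (2.25 ± 0.54, adjusted p = 0.00228). Both were higher in all study 3 arrays. The aminopeptidase Enpep (2.07 ± 0.36, adjusted p = 3.21e-05), the actin-linked LIM protein Csrp1 (1.97 ± 0.17, adjusted p = 9.85e-12) and the cytochrome P450 Cyp2c22 (1.96 ± 0.20, adjusted p = 4.31e-10) also rose without overlap.

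Large falls lay outside fat metabolism too. Egr1, an immediate early transcription factor, read 87.8, 193, 167, 50.1 and 365 in study 3 and 1240, 1640, 1020 and 3160 in study 2. Each group spread several-fold and no array overlapped (-3.49 ± 0.63, adjusted p = 6.67e-05). Of 25 tested immediate early genes only Egr1 and Klf6 (-1.49 ± 0.34, adjusted p = 0.00116) were called, both lower, and Fos read 30.6, 34.1, 72, 17.2 and 40.9 in study 3 and 36.1, 38.1, 52.1 and 46 in study 2 (adjusted p = 0.641). Cyp17a1, the steroid hydroxylase, read 15.8, 10.2, 6.03, 11.3 and 20.1 in study 3 and 108, 231, 252 and 147 in study 2 (-3.58 ± 0.41, adjusted p = 6.97e-09). The fatty acid binding protein Fabp7 read 87.5, 129, 120, 103 and 76.6 in study 3 and 646, 604, 995 and 398 in study 2 (-2.60 ± 0.32, adjusted p = 3.45e-08). Both lay lower in all 5 study 3 arrays. The bicarbonate transporter Slc4a4 fell by 2.95, the kinase Stk39 by 2.77 and the chemokine Ccl5 by 2.79 on the log2 scale, with adjusted p of 1.38e-08, 1.64e-05 and 0.000101.

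Several heat shock proteins and proteasome subunits were lower in study 3. The inducible heat shock protein Hspa1a read 1.43, 1.62, 0.899, 0.939 and 1.54 in study 3, under the offset, and 11.6, 72, 33.2 and 21.2 in study 2 (-2.91 ± 0.48, adjusted p = 1.72e-05). The small heat shock protein Hspb1 read 37.2, 44.2, 29.4, 51.3 and 44.2 in study 3 and 196, 152, 522 and 128 in study 2 (-2.30 ± 0.33, adjusted p = 1.13e-06). Neither gene overlapped between the groups, and of 14 tested heat shock genes 5 fell and none rose (median -0.40). Of these genes 3 fell without study 2 replicate 2, study 2 replicate 3, study 3 replicate 3 or study 3 replicate 4. Of 22 tested proteasome subunits 10 fell and none rose (median -0.43). The steps were small, with log2 differences of -0.65 ± 0.15 for Psmc1, an ATPase of the cap, -0.81 ± 0.19 and -0.71 ± 0.17 for Psma1 and Psma6 of the core, and -0.65 ± 0.16 for Psmd1 of the cap. In the list of endoplasmic reticulum stress and amino acid response, of 19 tested genes 6 rose and none fell although the median, -0.13, was below 0, and among the 6 were the disulfide isomerase Pdia3 (0.94 ± 0.19, adjusted p = 0.000195) and calreticulin (Calr, 0.56 ± 0.19, adjusted p = 0.0365).

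Plasma proteins differed by class. Of 21 tested complement and coagulation genes 8 rose and none fell (median 0.27). Plasminogen (Plg) read 1940, 2280, 2010, 2220 and 2380 in study 3 and 591, 620, 538 and 695 in study 2 (1.82 ± 0.18, adjusted p = 1.36e-10). Coagulation factor IX (F9) read 755, 920, 873, 917 and 907 in study 3 and 257, 306, 235 and 329 in study 2 (1.63 ± 0.23, adjusted p = 9.26e-07). Both were separate in all arrays, as were mannose-binding lectin (Mbl2, 1.30 ± 0.24) and the complement protease C1s (1.16 ± 0.22). Of 15 tested apolipoprotein and lipoprotein genes 6 fell and none rose (median -0.30). Apob, the structural protein of very low density lipoprotein, read 1170, 1100, 1240, 563 and 989 in study 3 and 1590, 2000, 1390 and 2210 in study 2 (-0.85 ± 0.23, adjusted p = 0.00587), without overlap. Apoa1 also fell (-0.35 ± 0.12, adjusted p = 0.0442), a call that ended in 10 alternative settings. Apoa4 read 499, 528, 664, 496 and 542 in study 3 and 897, 889, 801 and 909 in study 2 and was not called (adjusted p = 0.234), although its groups did not overlap.

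**Figure D4:**
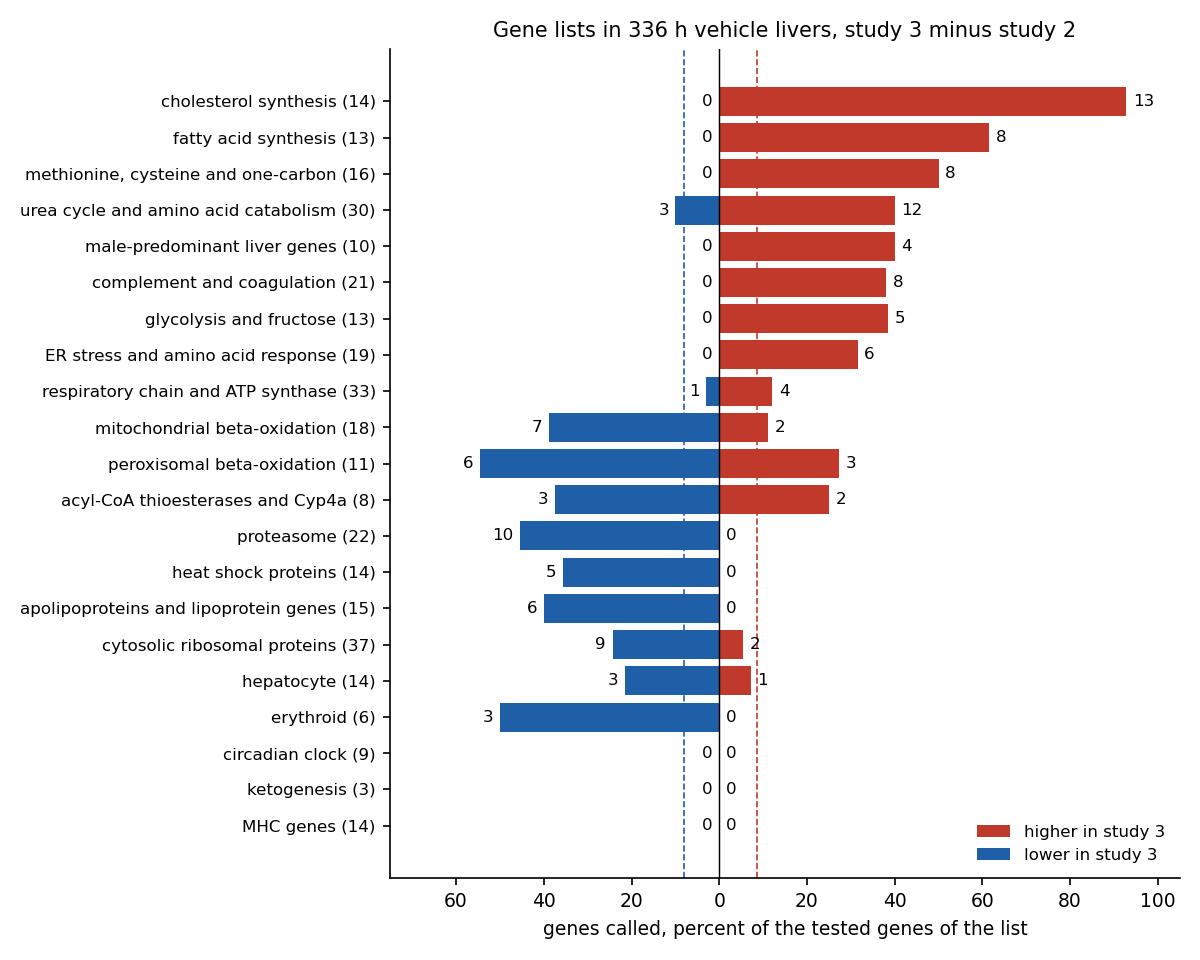
For each list, with its number of tested genes in brackets, bars give the percent of genes called higher (right) and lower (left) in the vehicle livers of study 3 than in those of study 2, and numbers give their counts. Dashed lines mark the shares of all genes tested, 8.64% higher and 8.07% lower; cholesterol synthesis reaches farthest right with 13 of 14 and peroxisomal oxidation farthest left with 6 of 11.

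Some male-patterned genes were higher in study 3. Of 10 tested male-predominant genes 4 rose and none fell (median 0.49): Car3, the P450s Cyp2c13 (0.96 ± 0.24, adjusted p = 0.00284) and Cyp2a2 (0.84 ± 0.20, adjusted p = 0.00209) and the peroxisomal oxidase Hao2 (1.19 ± 0.39, adjusted p = 0.0291). The main male P450, Cyp2c11, read 3960, 3800, 4950, 2640 and 3500 in study 3 and 2920, 2010, 3410 and 2640 in study 2 and was not called (adjusted p = 0.402), with overlap. Of 8 female-predominant genes Cyp2a1 rose (0.70 ± 0.22) and Cyp2c12, the classic female P450, fell (-2.05 ± 0.70, adjusted p = 0.0339) with overlapping groups. Of 19 targets of the drug sensors CAR and PXR 5 rose and 3 fell. Cyp3a23-3a1 read 2370, 3160, 4800, 3280 and 4860 in study 3 and 1280, 1380, 1030 and 2200 in study 2 (1.33 ± 0.16, adjusted p = 3.77e-08), all study 3 arrays being higher. Cyp2b2 read 235, 190, 250, 243 and 374 in study 3 and 690, 323, 634 and 559 in study 2, lower in study 3 with overlap (-1.07 ± 0.29, adjusted p = 0.00593). The retinal dehydrogenase Aldh1a1 read 208, 133, 386, 140 and 115 in study 3 and 852, 610, 759 and 901 in study 2 (-2.11 ± 0.29, adjusted p = 7.51e-07), without overlap. The glutathione transferase Gsta3 rose by 1.25 ± 0.38 (adjusted p = 0.0153), with overlap. Near-identical members of the Cyp2a, Cyp2c, Cyp3a and Gsta families may share probe signal.

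Genes of the circadian clock gave no call after adjustment in the main fit. With limma 0 of 9 tested clock genes passed the adjusted threshold and 4 had an unadjusted p under 0.05. Such an unadjusted p was found for 1891 of all 6361 tested probe sets. With only the groups compared, and with array quality weights, 2 clock genes were called higher. Of 9 tested genes with a daily rhythm outside the clock itself, Sqle and the vasopressin receptor Avpr1a (0.76 ± 0.27, adjusted p = 0.0399) rose and Gys2 fell. The call of Avpr1a ended on leaving out any of 7 arrays. Dbp, a strongly cycling output gene, read 9.61, 19.3, 5.43, 17.5 and 3.12 in study 3 and 18.3, 28, 25.9 and 16.9 in study 2, with overlap (adjusted p = 0.104). Per2 read 17.4, 19.6, 13.4, 13.4 and 9.34 in study 3 and 4.13, 8.25, 6.93 and 8.1 in study 2, where all study 3 arrays were higher and the adjusted p was 0.104. Bmal1 and Nr1d1, which peak in opposite phases, differed by -0.24 and 0.24 (adjusted p of 0.791 and 0.72). A p above the threshold does not show that the hours were alike.

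Some markers of other cells were called, in several lists at or above the share of all genes. The calls are to be set against the 16.7% of all genes called, 8.64% higher and 8.07% lower. In bulk samples fewer cells of a type and less RNA per cell cannot be told apart. Of 6 tested red cell genes 3 fell (median -0.48), with a summed signal of 4048 to 8667 in study 3 and 8745 to 11880 in study 2. The globin Hbb read 3720, 3280, 2640, 2700 and 4710 in study 3 and 5060, 5260, 6700 and 5210 in study 2, without overlap (-0.73 ± 0.21, adjusted p = 0.00976). Endothelial markers summed to 310.5 to 433.9 in study 3 and 520.7 to 586.3 in study 2, with 2 of 11 lower, Kdr (-0.72 ± 0.25) and Lyve1 (-0.78 ± 0.24). That count was 0 without study 3 replicate 3, 2 without study 2 replicate 1 or study 3 replicate 1, and 1 on leaving out any other single array. Bile duct and epithelial markers summed to 1007 to 1303 in study 3 and 1459 to 1891 in study 2, with 1 of 13 lower, the keratin Krt18 (-0.83 ± 0.17), which hepatocytes also make. Of 13 stellate markers Acta2 was lower, with 4.37, 4.31, 1.74, 1.21 and 1.8 in study 3 and 21.6, 28.4, 22.5 and 15.5 in study 2 (-2.18 ± 0.53, adjusted p = 0.00253), and of 10 Kupffer cell markers 1 rose (0 on leaving out any of 5 arrays) and 1, the complement subunit C1qb, fell (-0.74 ± 0.19). T and NK cell markers had 2 higher and 1 lower (Ccl5) of 12, with 0 or 1 higher on leaving out any 1 array. Of 11 pancreas markers 2 rose, the amylase Amy2a3 (0.78 ± 0.18, adjusted p = 0.00154) and the elastase Cela2a (1.61 ± 0.39, adjusted p = 0.0025). Of 7 adipocyte markers the leptin gene Lep rose (0.76 ± 0.23, adjusted p = 0.0139), a call that ended without study 2 replicate 4 or study 3 replicate 3. Limma called 0 of the tested B cell (2), neutrophil (5), mast cell (5), muscle (8) and intestinal (8) markers. Of these 1 B cell marker and 3 intestinal markers had an unadjusted p under 0.05, against 1891 of all 6361 probe sets. No signal was 0 on any array, since the lowest value in the table is 0.056. The part of these markers in the differences of fat metabolism was not tested.

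Array controls also differed. The actin 3′ probe set read 1820 to 2860 in study 3 and 726 to 1550 in study 2, the 5S ribosomal RNA probe set 7.69 to 31.2 in study 3 and 56.4 to 71.5 in study 2, and the spiked CreX control 2140 to 3310 in study 3 and 3500 to 4110 in study 2. The ratio of actin 3′ to 5′ signal, which rises as RNA degrades, was 1.76 to 2.77 in study 3 and 2.02 to 3.06 in study 2 and overlapped. Unlike CreX, the DapX control was higher in study 3, at 247 to 375 against 155 to 191 in study 2. The BioB, BioC and BioDn 3′ controls were lower in study 3 without overlap, and LysX, PheX and ThrX overlapped. The part of the array controls in the differences was not tested.

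The dosed livers gave another comparison of both studies with no shared arrays, but study 3 gave R1 at 30 mg/kg and study 2 at 20 and 100 mg/kg, so study and dose cannot be told apart there. With study 3 set against the mean of both study 2 doses, 1158 of 6361 probe sets (18.2%) passed, 540 (8.49%) with study 3 higher and 618 (9.72%) with it lower. Of the 1135 probe sets called between vehicle livers 1032 (90.9%) had the same sign between dosed livers, against 73.0% of all tested. Both comparisons called 563 probe sets in the same direction, 49.6% of the vehicle calls and 48.6% of the dosed calls, and 7 in opposite directions. Pearson's r of the log2 differences was 0.636 over 6361 probe sets, which come from the same arrays and are not independent of each other.

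The genes of fat metabolism differed in how they stood among the dosed livers. Ech1 averaged 308 ± 38.8 with R1 at 30 mg/kg in study 3 (SD, n = 4), 3285 ± 464 at 20 mg/kg in study 2 (SD, n = 5) and 568 ± 75.3 at 100 mg/kg in study 2 (SD, n = 4). Cpt1a averaged 103 ± 35.8 with 30 mg/kg in study 3, 820 ± 129 with 20 mg/kg and 241 ± 96.9 with 100 mg/kg in study 2. For both genes the 20 mg/kg livers of study 2 thus lay nearer to the study 2 vehicle livers, and the 100 mg/kg livers of the same study nearer to those of study 3. The summed mitochondrial oxidation signal was 7980 to 9670 in study 3 vehicle livers, 7890 to 9480 at 30 mg/kg in study 3, 17200 to 19300 in study 2 vehicle livers, 14200 to 16900 at 20 mg/kg and 5720 to 7530 at 100 mg/kg in study 2. Here the 100 mg/kg livers lay below both study 3 groups, whereas for Ech1 and Cpt1a their mean lay above that of the study 3 vehicle livers. For peroxisomal genes the sums were 4770 to 5910 in study 3 vehicle livers, 4540 to 4960 at 30 mg/kg, 12300 to 13400 in study 2 vehicle livers, 11000 to 12200 at 20 mg/kg and 3680 to 5420 at 100 mg/kg.

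Sterol genes stood at another order among the same dosed livers. Cyp51 averaged 1803 ± 373 at 30 mg/kg in study 3, 309 ± 56.9 at 20 mg/kg and 1123 ± 400 at 100 mg/kg in study 2. The summed cholesterol synthesis signal was 4580 to 5150 in study 3 vehicle livers and 10200 to 16100 at 30 mg/kg, against 1260 to 1740 in study 2 vehicle livers, 1960 to 3460 at 20 mg/kg and 9040 to 19600 at 100 mg/kg. The highest dosed sums thus lay above both sets of vehicle livers, and the 20 mg/kg livers below the study 3 vehicle livers. Fatty acid synthesis signals summed to 3550 to 5400 in study 3 vehicle livers and 1860 to 2380 at 30 mg/kg, against 1200 to 1990 in study 2 vehicle livers, 939 to 1230 at 20 mg/kg and 1080 to 2320 at 100 mg/kg. Egr1 averaged 74.3 ± 48.3 at 30 mg/kg in study 3, 60.6 ± 32.9 at 20 mg/kg and 218 ± 149.5 at 100 mg/kg in study 2 and was not called between dosed livers (adjusted p = 0.529). Pck1, not called between vehicle livers, was higher in study 3 between dosed livers (1.70 ± 0.37, adjusted p = 0.000719).

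**Figure D5:**
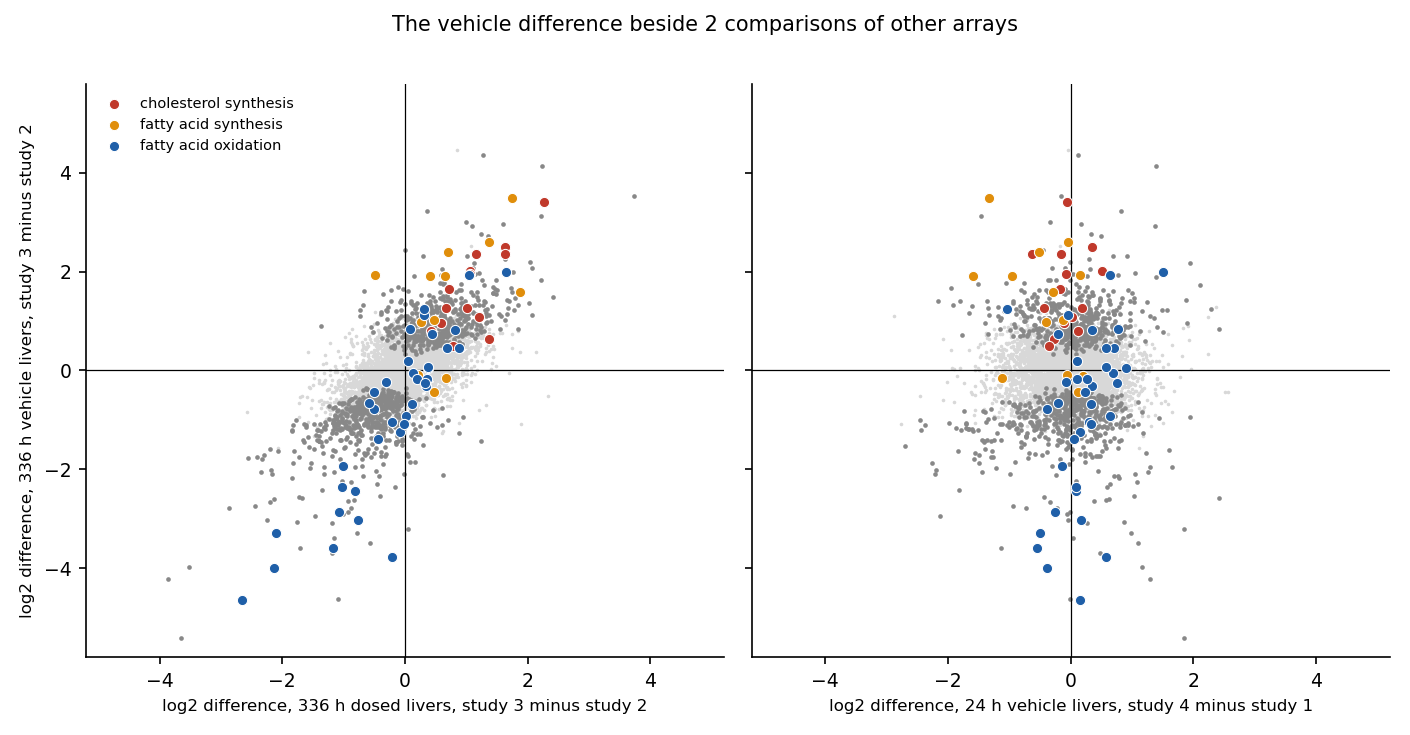
Each point is a probe set, with the log2 difference between vehicle livers at 336 h, study 3 minus study 2, on the vertical axis. The horizontal axis is the difference between dosed livers of the same studies in the left panel and between 24 h vehicle livers, study 4 minus study 1, in the right panel; called probe sets are dark and genes of 3 pathways are coloured. The points in the left panel run along a rising line (r = 0.636) and those in the right panel show no slope (r = 0.00694).

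The 24 h vehicle livers, from studies 4 and 1, show what the vehicle livers of other studies read. Between them 359 of 6361 probe sets (5.64%) passed, 167 (2.63%) with study 4 higher and 192 (3.02%) with it lower, and 172 of 3693 genes (4.66%) did. Of the 1135 probe sets called between the 336 h vehicle livers 573 (50.5%) had the same sign between study 4 and study 1, near the 47.35% of all tested. Both comparisons called 91 in the same direction and 46 in opposite directions. Time and study cannot be told apart between 24 h and 336 h livers. Ech1 averaged 291 ± 34.0 in study 4 (SD, n = 4) and 383 ± 57.8 in study 1 (SD, n = 3), Cpt1a 215 ± 34.9 in study 4 and 312 ± 104 in study 1, and Ddc 174 ± 20.2 in study 4 and 159 ± 9.85 in study 1. In these 3 genes the means of the 24 h vehicle livers were closer to the study 3 than to the study 2 vehicle livers.

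The same was counted for the called members of several lists. The means of both 24 h studies lay nearer to study 3 than to study 2 for 12 of the 13 called cholesterol genes, all 8 called fatty acid synthesis genes, 7 of 9 called mitochondrial oxidation genes and all 9 called peroxisomal genes. Over all 1135 called probe sets 568 (50%) were nearer to study 3 in both, and among those called at 4-fold or more 59 of 78 (75.6%). Taken singly, study 4 was nearer to study 3 for 831 (73.2%) and study 1 for 728 (64.1%). Of the proteasome subunits 5 of 10 called members lay nearer to study 3 in both, of the methionine and one-carbon genes 4 of 8, of the thioesterase and Cyp4a genes 4 of 5 and of the complement and coagulation genes 6 of 8. Of 13 tested fatty acid synthesis genes 2 were called between the 24 h studies, both lower in study 4, against 4.66% of all genes called. The other 11 were not called, and the summed signals overlapped, at 4290 to 6970 in study 4 and 5280 to 8400 in study 1. The called genes were Fasn, with means of 85.8 ± 26.3 in study 4 and 237 ± 114 in study 1 (-1.34 ± 0.35, adjusted p = 0.0127), and Gpam, with 24.4 ± 5.35 in study 4 and 79.3 ± 14.7 in study 1 (-1.60 ± 0.38, adjusted p = 0.00652).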

How the data were processed

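RNA from a slice of the left lateral liver lobe was labelled as biotinylated cRNA and hybridised to an Affymetrix rat array, 1 array per sample, per the labels' protocols; MAS5 is named by the submitters' processing notes, and its version and scaling are not given in the sources used here. The deposited values are intensity (signal) values on a linear scale for 8799 probe sets, and all 44 arrays hold the same sorted values, so they had been quantile-normalized, a step that no label states. Control probe sets (59) were left out. Values were taken as log2(signal + 2.89), the offset being percentile 20 of all values, and probe sets whose highest group mean reached 9.17 (percentile 40) were tested with limma 3.58.1 in R 4.3.3: 1 mean for each of 11 groups, a mean-variance trend and Benjamini-Hochberg adjustment over 6361 probe sets, called at an adjusted p of 0.05. The method was tested on simulated data. A gene is its probe set of highest mean among those with 1 symbol in the platform annotation (7006 probe sets, with 308 of several symbols and 1426 of none). Named genes are the 15 largest rises and 15 largest falls without overlap, called members of the lists (at most 5 by adjusted p unless a list is described member by member), uncalled members needed beside them, and a set of liver genes always given. The members and lists were chosen with earlier results of these data known. The number of arrays limits the precision. Replicate numbers did not pair samples: same-numbered arrays had correlations of deviations of -0.087 to -0.022. Alternatives were other offsets, filters, scalings, variance models, sample sets, a replicate block and leaving out each array.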

Additional observations from a re-analysis of the deposited data

Results flagged for a closer look

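In 16 of 300 sets of values (150 genes, each in the study 3 and the study 2 vehicle livers) a single array lay farther from the rest than Dixon's 95% criterion allows, where chance gives about 1 in 20. Study 2 replicate 1 was the array in 5 of them: it was highest for Echs1 (404, others 324 to 332) and Ccl5 (104, others 52 to 58.4) and lowest for Hadha (444, others 534 to 545), Gys2 (174, others 207 to 208) and Hsd17b7 (13.8, others 18.7 to 19.6). Study 3 replicate 3 was lowest for Acox3 (6.24, others 25.3 to 34.9) and Klf6 (6.14, others 19.8 to 25.9) and highest for Ggt1 (4.06, others 1.24 to 1.86), a signal near the offset. Study 3 replicate 4 was lowest for Acadm (738, others 1060 to 1180), Acads (92.6, others 122 to 136) and Apob (563, others 989 to 1240), replicate 1 lowest for F9 (755, others 873 to 920) and replicate 5 highest for Hao2 (1330, others 588 to 685). In study 2, replicate 2 was lowest for Mbl2 (508, others 701 to 729), and replicate 3 was highest for Enpep (9.18, others 1.74 to 2.16) and Hbb (6700, others 5060 to 5260). Causes were not tested.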

How the results depend on the processing

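The number of probe sets called between vehicle livers was 1135 and stayed within 1.5 times that count under other offsets, filters, scalings and variance models, from 1050 without a filter on dim probe sets to 1692 (829 higher, 863 lower) with array quality weights, and was 1365 with only the groups compared. With 1 probe set per gene, which tests fewer features, 606 genes were called between vehicle livers, 600 between dosed livers and 163 between 24 h vehicle livers. Leaving out 1 array gave 909 to 1090 calls between vehicle livers, fewest without study 2 replicate 2, 826 to 1198 between dosed livers and 193 to 291 between 24 h vehicle livers, where 193 were called without study 1 replicate 2 and 221 without study 1 replicate 1 against 359 with all arrays. Array quality weights gave 714 for the 24 h vehicle livers; the cause was not tested. With the replicate block, 1071 probe sets were called between vehicle livers (513 higher, 558 lower), and of the named genes the calls of Acox3, Apoa1, Avpr1a, Hao2, Kdr and Mat1a ended; the numbers do not pair the samples. Of 121 named genes called, 101 were called in every alternative that tested them, which was 20 alternatives, or 19 for Cela2a. The calls of 20 genes ended in at least 1 alternative, 19 of them on leaving out an array, and none reversed. Leaving out study 2 replicate 1 took the adjusted p to 0.199 for Acox3, 0.149 for Apoa1, 0.13 for Calr and 0.147 for Mvk. Without study 2 replicate 2 it was 0.115 for Avpr1a, 0.0753 for Cyp2a1, 0.0742 for Khk, 0.11 for Sds and 0.0623 for Stat5b. Without study 2 replicate 3 it was 0.147 for Cyp2c12, 0.0785 for Gsta3, 0.0879 for Lyve1 and 0.197 for Mat1a, and without study 2 replicate 4 it was 0.14 for Kdr, 0.0584 for Lep and 0.272 for Mgll. Without study 3 replicate 5 it was 0.104 for Hao2 and 0.0505 for Tdo2, and without study 3 replicate 2 it was 0.0657 for Ucp2. The call of Pnpla3 ended with the larger offset. Of the 29 not called, Acacb, Apoa4 and Per2 became called in some setting. Without 1 array, 12 to 13 cholesterol genes and 8 fatty acid synthesis genes were higher, and 7 to 10 proteasome genes were lower. The counts of glycolysis (3 to 5 higher), heat shock (3 to 5 lower), NRF2 target (3 to 5 higher), other PPAR-alpha target (1 to 3 lower), amino acid (1 to 3 lower), T and NK cell (0 to 1 higher) and endothelial (0 to 2 lower) lists moved by over 1.5 times. The median log2 difference of 9 of 59 lists moved in some setting by at least 1 SD of the arrays' list medians within studies. These were the lists of fatty acid synthesis, peroxisomal oxidation, glucose production and glycogen, growth hormone and IGF, and male-predominant genes. The others were the respiratory chain, other cytochrome P450, T and NK cell and endothelial lists. Study and group cannot be told apart, and no alternative changes that. Dim genes such as Fasn in study 2 and Acot1 in study 3 lie at the offset, so their fold changes depend on it while their direction did not.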

Other observations

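Of 37 tested cytosolic ribosomal protein genes 9 were lower and 2 higher in study 3 (median log2 difference -0.18), against 8.07% of all genes lower and 8.64% higher. Of 33 tested genes of the respiratory chain and ATP synthase 4 were higher and 1 lower, although the median was -0.06, a share called near the 16.7% of all genes. Among the higher were the succinate dehydrogenase subunit Sdha, with 446, 421, 517, 493 and 631 in study 3 and 264, 298, 219 and 248 in study 2, and the complex I subunit Ndufs1, with 52.4, 50.5, 42.3, 33.7 and 35.7 in study 3 and 16.7, 18.2, 15 and 20.1 in study 2. Both were higher in every study 3 array, with log2 differences of 0.95 ± 0.25 (adjusted p = 0.00437) and 1.15 ± 0.30 (adjusted p = 0.00478) in limma's fit.

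Of 19 tested cytokine and chemokine genes 3 were lower and none higher, also near the 16.7% of all genes called. The NF-kappa-B inhibitor Nfkbia, itself a target of NF-kappa-B, read 33, 28.7, 30.5, 39 and 75.5 in study 3 and 145, 107, 141 and 152 in study 2, without overlap (-1.73 ± 0.24, adjusted p = 7.51e-07). Between the dosed livers its log2 difference was -0.32 ± 0.22 (adjusted p = 0.327), and the difference between these comparisons was not tested. Of 22 tested NRF2 targets 5 were higher and none lower (median 0.31), and 3 were higher without study 2 replicate 1, 2 or 3 or study 3 replicate 1 or 3. The pentose phosphate enzyme Tkt, also a supplier of reducing power and sugars, read 293, 265, 225, 256 and 239 in study 3 and 98.9, 94.6, 97.1 and 97.5 in study 2 (1.37 ± 0.22, adjusted p = 1.31e-05), and all 5 study 3 arrays were above all 4 of study 2.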
